A study of Mus musculus with 3 samples.

Results

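Peaks of the nucleoporin Seh1, and those of an IgG control, were examined where they lay in ERVK long terminal repeats of wild-type mouse neural stem cells. A peak was counted here when the repeat label at its centre was of the LTR class and ERVK family and its name did not contain the internal tag "-int". The Seh1 list held 1205 such peaks among 16113, and the IgG list held 137 among 5314, so that 1342 of 21427 peaks in all were taken. The cells were primary cultures from the cortex of newborn (P0) mice, kept on laminin and poly-L-ornithine in growth medium with EGF and bFGF at a proliferating stage. Both libraries and an input library, whose own values were not analysed here, came from cells of this 1 genotype and medium, with 1 library per group. No value below therefore has a replicate error, and every test compares the 2 peak lists, or kinds of peaks within 1 list, and not conditions. Peak lists carry no expression values, so the labelled cell type could not be checked against marker genes.

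ERVK elements are endogenous retroviruses related to betaretroviruses, and in the mouse they include the intracisternal A particles (IAP) and the early transposons (ETn). A complete provirus carries the same long terminal repeat at both ends, and each copy holds the promoter, enhancer sequence and polyadenylation signal of the element. Recombination between the ends removes the internal part and leaves a solitary terminal repeat. In embryonic and neural progenitor cells many of these copies are silenced by KRAB zinc finger proteins, which recruit TRIM28 and the histone methyltransferase SETDB1, and by DNA methylation. Seh1 is a subunit of the nuclear pore's Nup107-160 complex and of GATOR2.

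Of the Seh1 peaks in ERVK terminal repeats, 5 overlapped the promoter window of a RefSeq gene, and their sequences are shown because they place such peaks beside annotated starts of transcription. The peaks at Gm35444, Gm32062 and Gm12637 covered the start site itself, whereas those at Gm14066 and Gm46962 ended upstream of it. All 5 genes were long non-coding RNAs. Each line below gives the gene, the repeat at the peak centre and the RefSeq window (GRCm38.p6, the same assembly as mm10) from 250 bases before to 50 after the start site, 5′ to 3′ on the gene's strand. Capitals mark the bases inside the Seh1 peak.
Gm14066 (IAPLTR2a2_Mm): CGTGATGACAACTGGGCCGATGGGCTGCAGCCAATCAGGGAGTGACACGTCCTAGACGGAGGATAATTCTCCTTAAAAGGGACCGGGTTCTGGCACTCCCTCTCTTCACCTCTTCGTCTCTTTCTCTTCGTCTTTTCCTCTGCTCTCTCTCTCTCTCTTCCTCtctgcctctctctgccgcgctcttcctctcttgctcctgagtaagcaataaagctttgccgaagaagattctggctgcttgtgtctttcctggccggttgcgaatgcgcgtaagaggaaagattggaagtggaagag
Gm35444 (RLTR10B): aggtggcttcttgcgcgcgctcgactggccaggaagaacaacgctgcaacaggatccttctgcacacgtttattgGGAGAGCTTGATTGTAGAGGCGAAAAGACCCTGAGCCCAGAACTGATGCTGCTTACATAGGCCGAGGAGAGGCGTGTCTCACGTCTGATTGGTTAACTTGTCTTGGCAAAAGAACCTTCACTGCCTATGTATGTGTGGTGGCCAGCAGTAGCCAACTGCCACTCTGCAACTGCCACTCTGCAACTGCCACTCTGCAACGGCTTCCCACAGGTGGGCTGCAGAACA
Gm32062 (RLTR9A2): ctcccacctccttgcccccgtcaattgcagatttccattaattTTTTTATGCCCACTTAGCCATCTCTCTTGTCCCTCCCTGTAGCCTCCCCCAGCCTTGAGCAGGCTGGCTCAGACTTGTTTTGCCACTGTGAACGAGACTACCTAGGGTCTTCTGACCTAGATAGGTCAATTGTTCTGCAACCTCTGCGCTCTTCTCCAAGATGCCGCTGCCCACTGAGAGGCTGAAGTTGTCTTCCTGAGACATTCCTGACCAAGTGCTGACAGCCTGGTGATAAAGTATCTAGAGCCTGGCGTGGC
Gm12637 (RMER13B): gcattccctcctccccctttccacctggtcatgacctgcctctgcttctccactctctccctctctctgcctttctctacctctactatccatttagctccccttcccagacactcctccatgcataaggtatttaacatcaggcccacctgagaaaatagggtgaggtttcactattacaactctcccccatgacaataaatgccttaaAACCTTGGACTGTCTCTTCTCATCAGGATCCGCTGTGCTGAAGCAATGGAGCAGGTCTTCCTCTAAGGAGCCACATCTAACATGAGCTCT
Gm46962 (RMER17B): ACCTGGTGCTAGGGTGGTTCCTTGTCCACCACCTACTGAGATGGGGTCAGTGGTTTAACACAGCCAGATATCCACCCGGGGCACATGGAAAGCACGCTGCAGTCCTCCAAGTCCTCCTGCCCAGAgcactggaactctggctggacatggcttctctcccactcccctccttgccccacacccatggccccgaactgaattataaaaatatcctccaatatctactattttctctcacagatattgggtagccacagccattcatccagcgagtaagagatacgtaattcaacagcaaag

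The Gm14066 window lay at chr2:139306875-139307174 on the minus strand, and its first 163 bases were inside a 440 bp peak whose centre was an IAPLTR2a2_Mm repeat. The window of Gm35444 (chr13:69291929-69292228, minus strand) shared 225 bases with its RLTR10B peak, and that of Gm32062 (chr12:105120011-105120310, plus strand) shared 257 with its RLTR9A2 peak. Gm12637 (chr4:92484363-92484662, plus strand) shared 90 bases with an RMER13B peak, and Gm46962 (chr6:70220655-70220954, minus strand) shared 125 with an RMER17B peak. The annotation deposited with the peaks did not give any of these peaks to the gene whose window it overlapped: it named Sptlc3, Tent4a, Tcl1b2, Izumo3 and Rpia, with start sites 26.8 to 571 kb away. Because only the centre of a peak carries a repeat label, part of each window may lie outside the repeat.

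The letters of the TATA box, the CCAAT box and the polyadenylation signal were searched in these windows on both strands. Positions are those of the leftmost base on the gene's strand, with the start site as 0. The polyadenylation signal was added to the search after the sequences had been seen. The polyadenylation signal AATAAA stood on the gene's strand at -41 in Gm14066 and at -54 in Gm12637, and its complement TTTATT at -182 in Gm35444. It was present on either strand in 19.6% of all 32851 windows. The CCAAT box was found at -220 in Gm14066 and -36 in Gm46962, and its complement ATTGG at 34 in Gm14066, at -8 in Gm46962 and at -179 and -88 in Gm35444, against 37.4% of all windows. The TATA box TATAAA was found in Gm46962 alone, at -50, against 13.6% of all windows. In Gm35444 the matches at -182 and -179 share letters, and a match describes the sequence only. Wholly inside the Seh1 peak lay only the CCAAT at -220 in Gm14066 and the ATTGG at -88 in Gm35444. The match at -179 in Gm35444 reached the peak with its last base only, and all other matches lay outside the peaks. Overlap with a promoter window was infrequent: 0.415% of Seh1 peaks in ERVK terminal repeats (95% exact interval 0.135 to 0.966%) overlapped such a window. Of all other Seh1 peaks 1.18% (1.01 to 1.37%) did, but these 2 shares are not like for like. Peaks annotated as promoter or exon carried no repeat label and so could fall only among the others. Within 1 kb of the annotated start site lay 0.083% of the ERVK terminal repeat peaks and 0.134% of the other repeat-labelled Seh1 peaks, against 1.92% of all Seh1 peaks. In the IgG list, none of the 137 ERVK terminal repeat peaks overlapped a promoter window, which the exact interval limits to 2.66%. Within 1 kb of the annotated start site lay 1 of them (0.730%).

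ERVK terminal repeats took up a larger part of the Seh1 list than of the IgG list. They marked the centre of 7.48% of Seh1 peaks (95% exact interval 7.08 to 7.90%) and 2.58% of IgG peaks (2.17 to 3.04%), a ratio of shares of 2.90 (95% interval on the log scale 2.44 to 3.45). Fisher's exact test (two-sided), run over 20 repeat families and adjusted by Benjamini-Hochberg, gave an adjusted p of 5.8e-43. Of these families, 35% passed at 0.05 with a higher share in the Seh1 list and 30% with a lower one, so a difference between the lists was common. Neighbouring peaks are not independent and the read depth is unknown, so p-values are too small and intervals cover counting error only.

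No difference was detected for the internal ERVK sequence taken as a whole. It lay under 392 peaks of Seh1 (2.43%, 2.20 to 2.68%) and 144 of IgG (2.71%, 2.29 to 3.18%). The ratio was 0.898 (0.744 to 1.08), and it did not pass Fisher's exact test (adjusted p = 0.33). Terminal repeats therefore made up 75.5% of the ERVK peaks in the Seh1 list (73.3 to 77.5%) and 48.8% in the IgG list (42.8 to 54.8%). Single internal names, however, were called in both directions in the test over all repeat names. RLTR10-int (110 Seh1 peaks and 1 IgG peak) and IAPEz-int (127 and 22) were called higher in the Seh1 list. ETnERV3-int (0 and 26), MMETn-int (6 and 15) and MYSERV6-int (1 and 12) were called lower. Among the other retroviral families, the ratio of ERV1, at 3.28 (2.16 to 4.99), had an interval that covered the ERVK terminal value. Those of ERVL-MaLR, at 1.44 (1.22 to 1.70), and ERVL, at 1.48 (1.07 to 2.06), lay below it. Differences between families were not tested.

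Most of these Seh1 peaks belonged to 4 groups of repeat names, which were picked out after their counts had been seen. IAP terminal repeats were at 318 Seh1 peaks and 2 IgG peaks, RMER17 repeats at 177 and 11, RLTR10 repeats at 166 and 2, and RMER13 repeats at 138 and 2. Together these groups held 799 Seh1 peaks, or 66.3% of those in ERVK terminal repeats, and 17 IgG peaks, or 12.4%. As shares of all peaks, the IAP group reached 1.97% (1.76 to 2.20%) for Seh1 and 0.0376% for IgG, a ratio of 52.4 with an exact interval of 14.4 to 435. The ratios of the RLTR10 and RMER13 groups were 27.4 (7.46 to 228) and 22.8 (6.18 to 190). That of the RMER17 group was 5.31 (2.89 to 10.8).

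**Figure D1:**
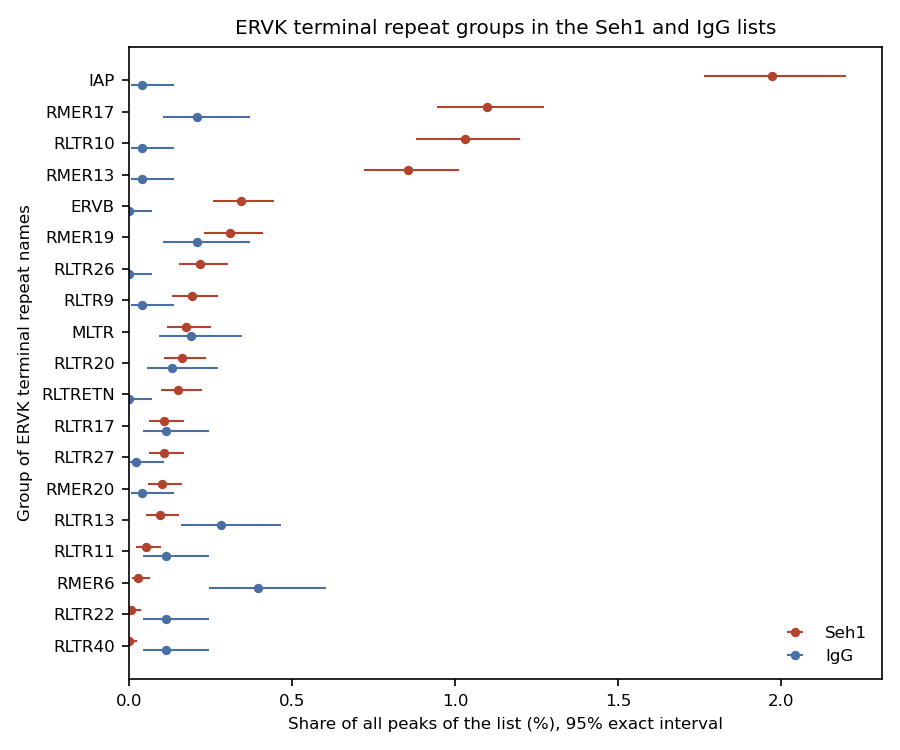
Share of all peaks of a list (horizontal axis, %) at each group of ERVK terminal repeat names with at least 15 Seh1 or 6 IgG peaks (vertical axis). Points are the Seh1 list (red) and the IgG list (blue) with 95% exact intervals; IAP stands at 1.97% and 0.0376%, whereas RMER6 and RLTR13 are higher in the IgG list.

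Other groups had few or no IgG peaks. ERVB terminal repeats were at 55 Seh1 peaks, RLTR26 at 35 and RLTRETN, the terminal repeat of ETn elements, at 24. None of these was under any of the 5314 IgG peaks, a count with an exact upper limit of 0.0694%. Set against 3 IgG counts (0.0565%), their shares in the Seh1 list were 6.05-fold, 3.85-fold and 2.64-fold higher. Such values leave out the counting error of the Seh1 share and are not lower limits of the ratio. RLTR9 repeats were at 31 Seh1 and 2 IgG peaks (ratio 5.11, interval 1.30 to 44.1).

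For several groups the counts could not tell the shares of the 2 lists apart. Other groups had larger shares in the IgG list. The intervals of the ratio included 1 for MLTR (28 Seh1 and 10 IgG peaks, ratio 0.923, 0.435 to 2.13), RMER19 (50 and 11, 1.50, 0.770 to 3.19), RLTR20 (26 and 7, 1.22, 0.518 to 3.34) and RLTR17 (17 and 6, 0.934, 0.352 to 2.89). RMER6 repeats were at 4 Seh1 peaks and 21 IgG peaks, a ratio of 0.0628 (0.0157 to 0.186), and had the most IgG peaks of any group. RLTR13 repeats were at 15 peaks in each list, a ratio of 0.330 (0.150 to 0.724). RLTR40 was at 6 IgG peaks and 0 Seh1 peaks, and RLTR22 at 6 and 1.

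By single name, 165 ERVK terminal repeats occurred in the lists: 137 in the Seh1 list, 71 in the IgG list and 43 in both. A total of 34 names had only 1 Seh1 peak. Names with at least 10 peaks over both lists were tested among all repeat names of any class. Of these 182 names, 26.9% were called with a higher share in the Seh1 list and 20.3% with a lower one at an adjusted p of 0.05. The ERVK terminal repeats accounted for 37 of the tested names, of which 21 (56.8%) were called higher and 2 (5.41%) lower, while 14 did not pass. Among peaks wider than the minimum width, where fewer names could be tested, 12 were called higher. The other 128 names had too few peaks to be tested. Calls need counts: in simulated lists, names made 4-fold rarer in the IgG list were recovered in 18.2% of cases. A name that did not pass is therefore not shown to be equal. The simulation drew independent counts and did not cover names lower in the Seh1 list. The median log2 ratio of shares was 1.67 over the 37 names and 0.57 over all 182, with counts of 0 set to 3. Counts of 1 and 2 were kept, so a name with 0 IgG peaks could rank below one with 1. The minimum of 10 peaks is also reached more easily by names frequent in the longer Seh1 list (16113 peaks against 5314). The medians are therefore no measure of a typical ratio, and the same selection bears on the counts of calls.

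RLTR10 had the most peaks of any name, with 82 for Seh1 (0.509%) and 0 for IgG (adjusted p = 1.6e-09, Fisher's exact test). Its share was 9.01-fold higher when set against 3 IgG counts. These 82 peaks were spread over 20 chromosomes. RLTR10C, with 25 Seh1 peaks and 1 IgG peak, had a ratio of 8.24 (1.35 to 339) and passed (adjusted p = 0.023, Fisher's exact test).

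Of the IAP names, 7 were called. IAPEY2_LTR (50 Seh1 peaks), IAPLTR1a_Mm (44), IAPLTR2_Mm (41), IAPEY_LTR (37), IAPLTR2a (29), IAPLTR2b (29) and IAPLTR1_Mm (20) each had 0 IgG peaks and an adjusted p between 7.4e-06 and 0.017 by Fisher's exact test. Set against 3 IgG counts, their ratios ran from 2.20-fold for IAPLTR1_Mm to 5.50-fold for IAPEY2_LTR. IAPLTR2a2_Mm, the repeat label of the peak upstream of Gm14066, had 27 Seh1 and 2 IgG peaks, a ratio of 4.45 (1.12 to 38.6) that did not pass (adjusted p = 0.059, Fisher's exact test). These 2 were the only IgG peaks at an IAP terminal repeat. On the sex chromosomes lay 12 (X) and 7 (Y) of the 318 Seh1 peaks of the IAP group. One name, IAPLTR4_I, with 8 Seh1 peaks, has the ending of internal sequences although it lacks the "-int" tag.

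Of the RMER names, every tested RMER13 one was called: RMER13B (57 Seh1 peaks and 0 IgG peaks, adjusted p = 1.3e-06), RMER13A2 (28 and 0, 0.0022), RMER13A (28 and 1, 0.012) and RMER13A1 (25 and 1, 0.023), all by Fisher's exact test. Of the RMER17 names, RMER17B (55 and 1), RMER17A2 (24 and 0), RMER17B2 (21 and 0) and RMER17A (24 and 1) were called, whereas RMER17C, singled out after its counts had been seen, was at 18 Seh1 peaks and 7 IgG peaks (0.112% and 0.132%, adjusted p = 0.72, Fisher's exact test). RMER17D2 (15 and 0, adjusted p = 0.060) and RMER17D (13 and 1, adjusted p = 0.29) did not pass Fisher's exact test either. RMER17C thus supplied 7 of the 11 IgG peaks of its group. RMER19B had 38 and 3 peaks, a ratio of 4.18 (1.33 to 21.2; adjusted p = 0.016, Fisher's exact test). Also called higher, each with 0 IgG peaks, were RLTRETN_Mm (24 Seh1 peaks), RLTR26_Mus (21) and ERVB4_1B-LTR_MM (19). Under at least 1 alternative setting the call was lost for RMER17A, RMER13A, RMER13A1, RMER19B, RLTR10C, RLTR26_Mus, RLTRETN_Mm, IAPLTR1_Mm and ERVB4_1B-LTR_MM.

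**Figure D2:**
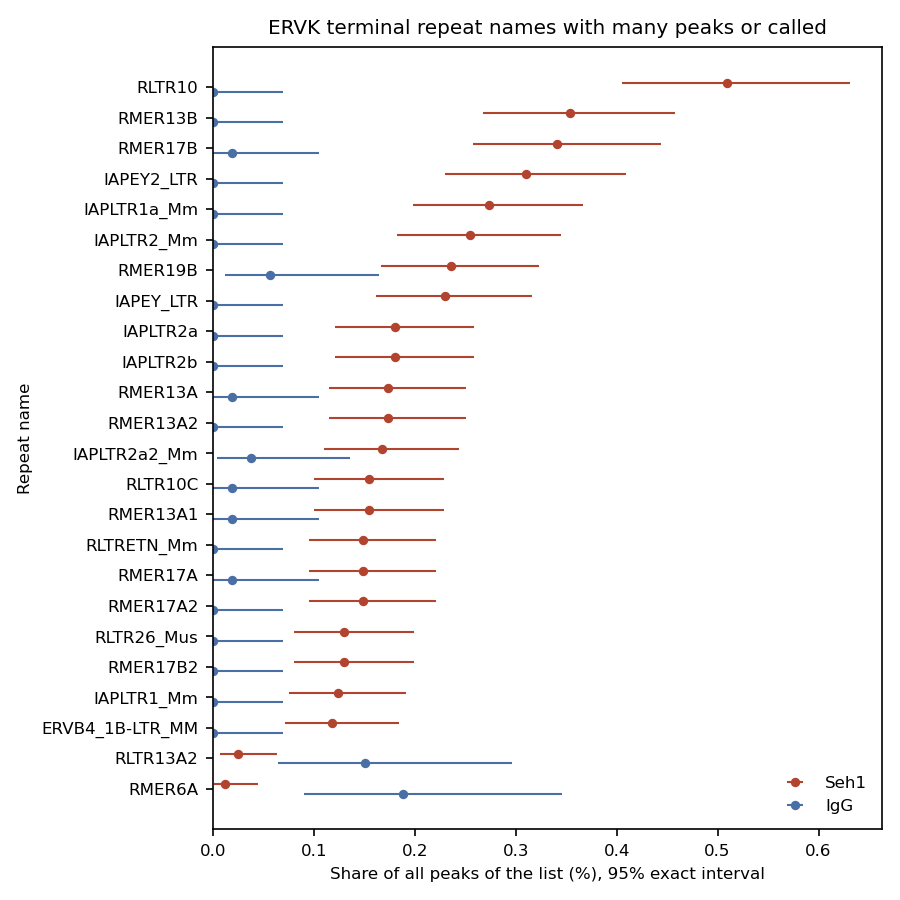
Share of all peaks (horizontal axis, %) for the ERVK terminal repeat names called in the test over all names or with at least 20 Seh1 peaks (vertical axis), in the Seh1 list (red) and the IgG list (blue) with 95% exact intervals. All but RLTR13A2 and RMER6A lie higher in the Seh1 list, and RLTR10 is the most frequent at 0.509%.

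The names called lower in the Seh1 list were RMER6A, with 2 Seh1 and 10 IgG peaks (ratio 0.0660, 0.00703 to 0.310; adjusted p = 0.00017, Fisher's exact test), and RLTR13A2, with 4 and 8 (ratio 0.165, 0.0363 to 0.616; adjusted p = 0.0076, Fisher's exact test). Part of these peaks lay in the 14 bins of 1 Mb that held at least 20 IgG peaks: 4 of the 10 IgG peaks of RMER6A and 3 of the 8 of RLTR13A2. Without those bins both names fell below 10 peaks and were not tested, at 1 and 6 peaks for RMER6A and 2 and 5 for RLTR13A2. When names with at least 5 peaks were admitted, 7 were called lower, the additional ones being RLTR40, RMER6D, RMER6C, MLTR25A and RLTR17B_Mm.

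Terminal and internal peaks were counted side by side by the start of the repeat name, with RLTRETN counted under ETn. Such a match need not join both parts of an element. Among Seh1 peaks, elements whose names begin with IAP gave 318 terminal and 175 internal peaks, a terminal share of 64.5% (60.1 to 68.7%). Among IgG peaks they gave 2 and 23, a share of 8% (0.984 to 26.0%). ETn elements gave 24 terminal and 11 internal Seh1 peaks, whereas their IgG peaks were 0 and 52. Names that begin with RLTR10 were infrequent in the IgG list in both parts (2 terminal and 1 internal peaks), against 166 and 110 in the Seh1 list. RMER names gave 394 terminal and 1 internal Seh1 peaks, and 55 and 11 IgG peaks. The terminal share of the other numbered RLTR names was 92.3% for Seh1 (88.1 to 95.4%) and 90% for IgG (80.5 to 95.9%). Peaks under MMERVK names were almost all internal in both lists, with 1 terminal and 66 internal Seh1 peaks and 0 and 25 IgG peaks. They include MMERVK10C-int, at 42 Seh1 and 17 IgG peaks. For these and for other names the split may reflect how the parts are named. The IgG peaks under IAP and ETn names were thus mostly internal, and the Seh1 peaks mostly terminal. No test of this split was made.

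**Figure D3:**
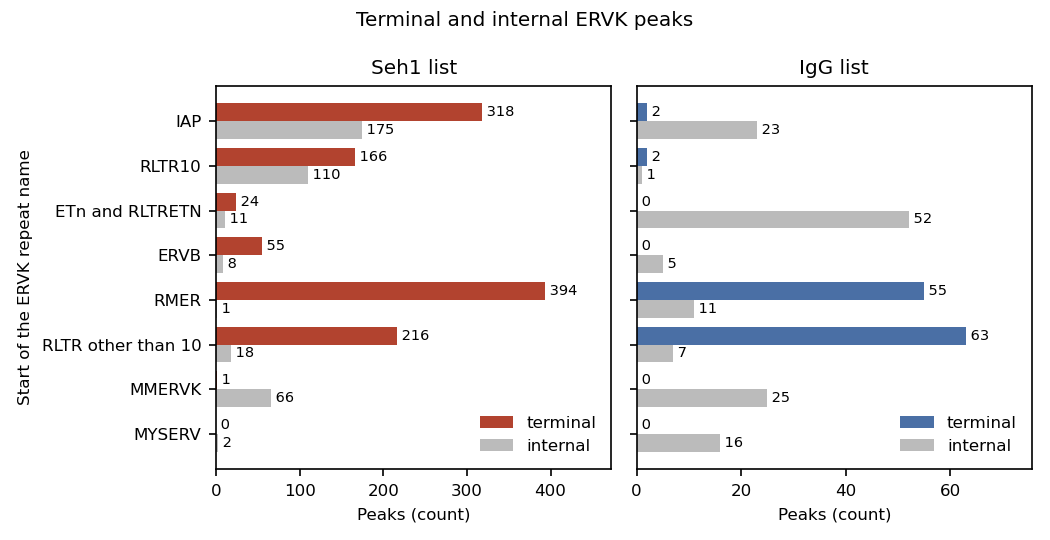
Number of peaks (horizontal axis) at terminal repeats (coloured bars) and internal sequence (grey bars) of ERVK elements, by the start of the repeat name (vertical axis), in the Seh1 list (left) and the IgG list (right), with the count at each bar. The scales differ between panels; IAP and ETn bars are longer for terminal repeats on the left and for internal sequence on the right.

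Pairs of peaks of the same name, as both ends of a provirus would give, were rare. Only 12 of the 1205 Seh1 peaks (0.996%, 0.516 to 1.73%) had another peak of the same name within 10 kb, against 0.806% (0.582 to 1.09%) of the other repeat-labelled peaks. They formed 6 pairs with centres 0.523 to 5.08 kb apart, and 3 of these pairs were less than 1 kb apart. The longest was a pair of RLTRETN_Mm peaks on chromosome 9 (chr9:19206255-19206586 and chr9:19211382-19211624, near the olfactory receptor gene Olfr843). None of the 6 pairs had a peak of ERVK internal sequence between its ends. A Seh1 peak of internal sequence lay within 10 kb of 26 terminal peaks (2.16%, 1.41 to 3.15%), 10 of them RLTR10 and 9 of them IAP.

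Seh1 peaks in ERVK terminal repeats lay away from genes. Of the 1205 peaks, 218 (18.1%, interval 16.0 to 20.4%) were in introns and 987 were intergenic, whereas 33.0% (31.8 to 34.3%) of the other 5209 repeat-labelled Seh1 peaks were intronic (adjusted p = 1.8e-24, Fisher's exact test over families, measures and lists). Of the 14 families tested in the Seh1 list, 35.7% passed in this direction and 64.3% in the other, so every family differed from the rest in this measure. The others with a low intronic share were ERV1 (13.0%), ERVK internal sequence (14.5%), the family labelled Other (21.2%) and L1 (24.0%). Within 10 kb of an annotated start site (TSS) were 9.88% (8.25 to 11.7%), compared with 14.1% (13.2 to 15.1%) of the other labelled peaks (adjusted p = 0.00022, Fisher's exact test), a direction in which 21.4% of families passed, with 28.6% in the other. ERVK internal sequence (6.89%) and L1 (9.68%) also passed in the low direction, whereas ERV1 (15.1%) did not. The median distance to the TSS was 68.1 kb, against 46.7 kb for the other labelled peaks, and 42.1% of peaks were more than 100 kb away, against 31.7%. For ERVK internal sequence the median was 79.4 kb, so this position was not particular to the terminal repeats.

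IgG peaks in these repeats were more often near a start site than other labelled IgG peaks. The 137 peaks had an intronic share of 27.0% (19.8 to 35.3%), beside 27.4% of the other labelled IgG peaks (adjusted p = 1.00, Fisher's exact test). Within 10 kb of a TSS were 21.2% (14.7 to 29.0%), above the 10.6% (9.44 to 11.8%) of the other labelled IgG peaks (adjusted p = 0.0011, Fisher's exact test), with 33.3% of the 9 families passing in this direction. The median distance was 53.8 kb, against 64.0 kb. The contrast between the lists in this respect was not itself tested.

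**Figure D4:**
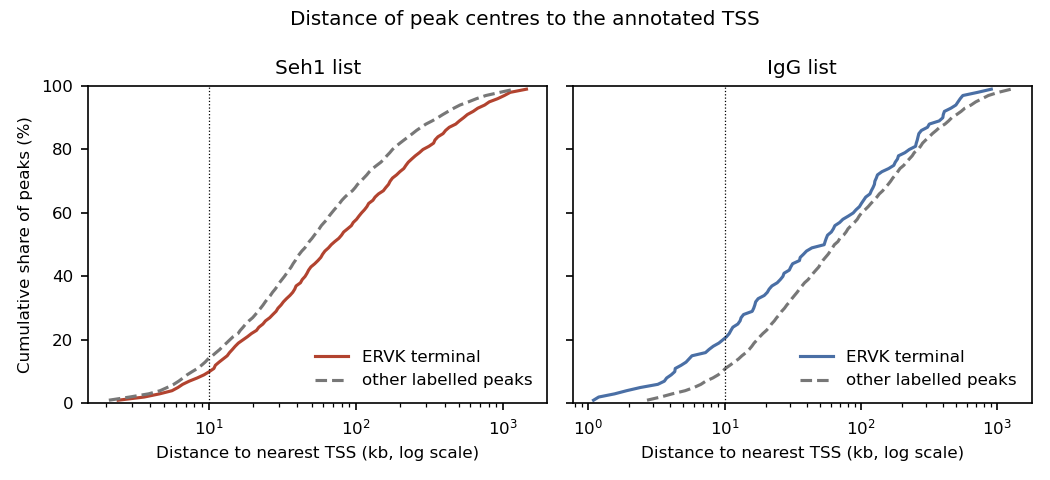
Cumulative share of peaks (vertical axis, %) by distance from the peak centre to the nearest annotated TSS (horizontal axis, kb, log scale), for ERVK terminal repeats (solid) and the other repeat-labelled peaks (dashed) in the Seh1 list (left) and the IgG list (right); the dotted line marks 10 kb. The solid line runs to the right of the dashed line in the Seh1 list, with medians of 68.1 and 46.7 kb, and mostly to its left in the IgG list, with medians of 53.8 and 64.0 kb.

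Position also varied among the groups of the Seh1 list. The IAP and RLTR10 groups had the lowest intronic shares of the 4 largest groups, at 11.9% (8.60 to 16.0%) and 13.3% (8.50 to 19.4%), with median TSS distances of 95.9 and 93.6 kb. ERVB repeats were in introns in 4 of 55 cases. RMER13 and RMER17 were at 20.3% (13.9 to 28.0%) and 23.2% (17.2 to 30.1%), and RMER19 at 32.0% (19.5 to 46.7%) with a median of 29.1 kb. MLTR repeats, at 39.3% (21.5 to 59.4%), had the highest share but only 28 peaks. The 17 peaks of RLTR27 were all intergenic, with a median distance of 270 kb.

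Intronic peaks fell in 214 different transcripts, and 3 transcripts held more than 1. These were the transcripts of Pdzd2, a PDZ domain protein, with 3 peaks (RMER17C in intron 3 of 25 and a pair of RMER17A in intron 2), Noc3l (RMER20C_Mm and RMER4B) and Ugt3a2, a glycosyltransferase (RLTRETN_Mm and RLTR9F). The names of these 3 genes were looked up after the values were seen, and the first RMER17C peak carried Golph3 as its nearest gene. First introns held 65 of the 218 peaks (29.8%, 23.8 to 36.4%), against 26.0% (23.9 to 28.1%) of the other labelled intronic peaks.

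Peak width served as the only measure of size, because the deposited score was 0 throughout. The median Seh1 width in ERVK terminal repeats was 268 bp (range 243 to 884 bp), and 74.4% were wider than the minimum of 243 bp, compared with 70.6% of the other labelled peaks (adjusted p = 0.020, Fisher's exact test; 7.14% of families passed in this direction). RMER19 repeats stood at 52.0% (37.4 to 66.3%), and IAP repeats at 76.4% (71.4 to 81.0%). In the IgG list 61.3% were wider than that list's minimum of 236 bp, against 63.9% of the others (adjusted p = 0.60, Fisher's exact test).

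The widest Seh1 peak was an RLTR10C repeat of 884 bp (chr5:15061306-15062189, 28.7 kb upstream of Gm17019). Next came an RLTR13A2 repeat of 721 bp (chr8:20289737-20290457, in an intron near the pseudogene 6820431F20Rik) and an RLTR26_Mus repeat of 694 bp (chr4:145724516-145725209, near the zinc finger gene Zfp980). These 3 lay in 1 Mb bins with 39, 101 and 42 IgG peaks. The other 7 of the 10 widest lay in bins with 0 to 4 IgG peaks. They were RLTR33 near Gm14496 (676 bp), RLTR45 near 1700031L13Rik (660 bp), MLTR31FA_MM near the lipid transporter gene Abca12 (607 bp), IAPLTR1a_Mm near 3200001D21Rik (606 bp), ERVB4_1B-LTR_MM near 2410018L13Rik (601 bp), IAPLTR1a_Mm near Msantd4 (578 bp) and RLTR13D3A1 near Mroh2a (572 bp). The widest IgG peaks were RMER6D near Speer4d (1315 bp), RLTR13A2 near 6820431F20Rik (991 bp), RLTR22_Mus near Olfr161 (775 bp), RLTR40 on chromosome 4 (704 bp) and RLTR31D_MM near the kinase gene Map2k6 (530 bp).

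Few positions were shared by the lists. Of the 1205 Seh1 peaks, 2 (0.166%, 0.0201 to 0.598%) overlapped an IgG peak by at least 1 bp, against 0.389% (0.296 to 0.503%) of all other Seh1 peaks. In the other direction, 4 of the 137 IgG peaks (2.92%, 0.801 to 7.31%) overlapped a Seh1 peak, and for RLTR33 and RLTR11A that Seh1 peak carried no repeat label. The share among all other IgG peaks was not computed, so whether 2.92% is high or low for that list cannot be said. The 2 Seh1 peaks were the RLTR13A2 peak on chromosome 8 named above, which shared 504 bp with the 991 bp IgG peak, and an RMER6D peak (chr5:15590457-15590725) that shared 237 bp. In both cases the IgG peak carried the same repeat name. With centres within 1 kb in place of overlap the count was 11, of which 6 lay in bins dense in IgG peaks. One of those outside such bins was an RMER4B repeat in intron 1 of 4931408C20Rik. There a Seh1 peak (chr1:26686458-26686892) ended 106 bp before an IgG peak (chr1:26686999-26687272).

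ERVK terminal repeat peaks were spread over the genome. The Seh1 peaks fell into 919 bins of 1 Mb, no bin held more than 6, and 58.0% of the peaks were alone in their bin. Bins with 6 were found on chromosome 12 (19 to 20 Mb), 14 (6 to 7 Mb), 4 (147 to 148 Mb) and 8 (20 to 21 Mb); the last 2 held 91 and 101 IgG peaks, and the first 2 held 3 each. The chromosome 14 bin held 4 RMER13A2 and 2 RLTRETN_Mm peaks around Gm10406 and LOC100861615. A further bin of chromosome 14 (3 to 4 Mb) held 4 peaks, all RMER13A2, and the bin from 7 to 8 Mb held 2 of this name. In the IgG list the bins with the most, 4 each, were on chromosome 4 (147 to 148 Mb), 5 (15 to 16 Mb) and 8 (20 to 21 Mb), and all 3 were among those dense in IgG peaks. Among ERVK terminal repeat peaks, such bins held 33 for Seh1 (2.74%) and 22 for IgG (16.1%).

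The share of Seh1 peaks that lay in ERVK terminal repeats ranged from 4.75% on chromosome 11 (43 of 905, interval 3.46 to 6.35%) and 4.90% on chromosome 2 (55 of 1123, 3.71 to 6.33%) to 11.3% on X (37 of 327, 8.09 to 15.3%). On chromosome 1 it was 9.59% (102 of 1064, 7.88 to 11.5%). It exceeded the IgG share on each of these chromosomes, as it did on all 21. The 95% intervals of the lists overlapped on 8 of the 21 chromosomes (2, 5, 8, 9, 11, 18, 19 and Y). The shares lay closest on chromosome 19, with 5.87% of 375 Seh1 and 5.26% of 76 IgG peaks.

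**Figure D5:**
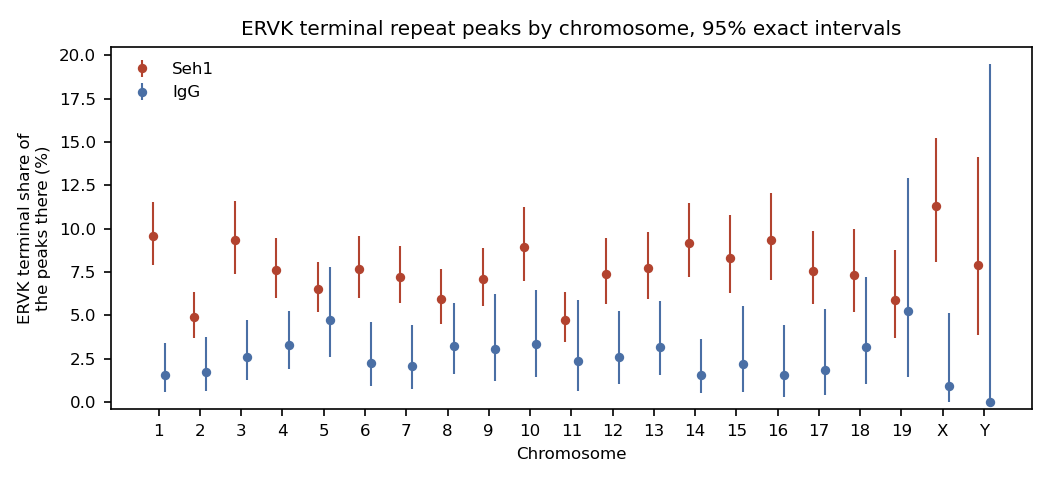
Share of the peaks of each chromosome (horizontal axis) that lay in ERVK terminal repeats (vertical axis, %), for the Seh1 list (red) and the IgG list (blue) with 95% exact intervals. The Seh1 share lies between 4.75% and 11.3%; the interval of IgG on Y is wide because 17 IgG peaks lay there.

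By the nearest TSS, 800 protein-coding genes were given a Seh1 peak in an ERVK terminal repeat, which is 3.65% of all 21896, and 93 (0.425%) were given an IgG peak of this kind. Of 1034 genes of any type in the Seh1 list, 909 had a single one. The gene with the most was 2410018L13Rik, a non-coding RNA on chromosome 12, with 5 (ERVB4_1B-LTR_MM, RMER17D and IAP1-MM_LTR), the nearest 59.6 kb off. Next, with 4 each, were 5730507C01Rik, the cadherin gene Cdh9, the kinesin gene Kif2b and the non-coding RNA 4930548G14Rik, and their peaks were 200.2 to 1633 kb from the TSS. In the IgG list Gm21119 had 4, Mmp16, a membrane metalloproteinase gene, and Olfr161 had 3 each, and Gm13238 had 2.

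The protein-coding genes with the closest Seh1 peaks were 4931408C20Rik (RMER4B, 785 bp downstream of the TSS), B020004J07Rik (ERVB4_1B-LTR_MM, 1.54 kb upstream), the zinc finger gene Zfp607b (RLTR20A4, 1.64 kb downstream, in intron 1 of 5), Mroh2a (RLTR13D3A1, 1.90 kb upstream) and Speer4f1 (IAPLTR2_Mm, 1.92 kb upstream). The closest in the IgG list were 4931408C20Rik (RMER4B, 325 bp), Tgs1, an RNA cap methyltransferase gene (LTR10_RN, 1.06 kb), and the zinc finger gene Zfp369 (RMER4A, 1.16 kb).

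Lists of genes of silencing, neural identity, glia, cell cycle arrest and other cell types were then read for such peaks. Of 28 genes that act in the silencing of endogenous retroviruses, 1 was given such a Seh1 peak (3.57%, beside 3.65% of all protein-coding genes): Morc3, an ATPase required for silencing of these elements, with an RMER17C repeat 12.3 kb upstream (chr16:93819650-93819899). Of 30 neural stem cell and cortical neurogenesis genes, 2 were (6.67%). One of them, Hes1, an effector of Notch signalling, had an RLTR10E peak of 474 bp 43.0 kb downstream (chr16:30108148-30108621). Of 14 astrocyte and oligodendrocyte genes, 1 was (7.14%): Slc1a3, the glutamate transporter of astrocytes and radial glia, with an RLTR10 peak 14.0 kb upstream (chr15:8724707-8724949). None of 16 CDK inhibitor and p53 genes, Cdkn1a included, and none of 14 genes of microglia, endothelium and fibroblasts was given one, although 8 and 7 of them had Seh1 peaks of other kinds. No gene of the 5 lists was given an IgG peak in an ERVK terminal repeat. With counts of 0 to 2, these lists cannot be told from the genome-wide share.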

How the data were processed

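Cultured mouse neural stem cells were profiled by ChIP-seq with 1 Seh1, 1 IgG and 1 input library. A deposited peak list was analysed for Seh1 and IgG. Per the file headers, the authors annotated peaks with HOMER annotatePeaks.pl on mm10, and the peak names pair each library with input. Bowtie2 and HOMER are named in the submitters' processing notes, which list human builds; mm10 follows the file headers. Not given in the sources used here were the peak caller, its threshold, the read depth and the treatment of multiply mapped reads, so which copy of a repeat a peak marks is uncertain. The deposited score was 0 for every peak. Except for 13 peaks with no annotation class, repeat labels stood only on intron and intergenic peaks.

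Members and lists were chosen with earlier results of these data known. Overlap with gene starts, neighbours, chromosomes, intron order and the terminal and internal split were added as descriptions after the files were seen. Counts were compared by two-sided Fisher's exact tests (scipy 1.17.1) over all families or names with at least 10 peaks, or within a list over families with at least 50, adjusted by Benjamini-Hochberg at 0.05. Shares carry 95% Clopper-Pearson intervals, and ratios of groups and names exact conditional ones. Ratios for an IgG count of 0 use 3 counts and leave out the counting error of the Seh1 share. The code was tested on simulated data. Names described were those called, or with at least 20 Seh1 or 10 IgG peaks; regions were the widest, the nearest to a protein-coding TSS and those overlapping the other list; genes were those with the most peaks and list members. Gene identifiers matched RefSeq for 1193 of 1193 Seh1 and 134 of 135 IgG peaks that carried one. The peaks of 1 gene of the lists are not reported here.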

Additional observations from a re-analysis of the deposited data

How the results depend on the processing

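The ratio of ERVK terminal repeat shares between the lists, 2.90, was 2.85 to 3.79 under the 7 alternatives tried and passed the test under each; leaving out IAPLTR4_I, at 2.88, was chosen after seeing the data. The count of names called higher in the Seh1 list, 21, was 12 when only peaks wider than the minimum width were kept, where fewer peaks were tested, and 18 to 27 otherwise. The count called lower, 2, was 7 with names of at least 5 peaks, 1 among wider peaks, and 0 both with names of at least 20 peaks and without the 1 Mb bins dense in IgG peaks; fewer names could be tested in these last 3. The 6 comparisons of intron share, TSS distance and width kept their side of the threshold under the alternatives run. The overlap with IgG peaks, 2, was 11 with centres within 1 kb. Among single names, 13 values lost their call, RMER17A under 3 of the alternatives, 7 gained one and 178 kept their side of the threshold. No paired analysis was possible because each group has 1 library. The unknown depth and the absence of scores limit every share to a description of these lists.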
